A study of Homo sapiens with 27 samples.

Results

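The 2 control conditions of an siRNA experiment were compared in A549, an established human lung adenocarcinoma cell line, with RNA measured on HTA 2.0 arrays that carry probes on exons and exon junctions. One condition received Lipofectamine alone, the lipid vehicle of the transfection. The other received scramble siRNA, an siRNA with no intended target in the cell, carried by the same lipid. The members are the hybridizations labelled with these treatments, 18 of the 27 in the series. The 3 hybridizations of each sample number were averaged, which left 6 of 9 samples, 3 in each condition. The other 3 samples received an siRNA against the splicing factor SRSF1 and entered the fits through the estimate of the spread and the filter on low signal, and a few of their levels and contrasts with Lipofectamine are given beside those of the controls. All 16733 genes and 73554 splicing events of the value table were considered, and 12549 genes and 25805 events passed the filter on low signal.

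An siRNA is a short double-stranded RNA that is loaded into Argonaute and guides cleavage of transcripts with a matching site. A cell that takes up any siRNA is exposed to more than its intended cleavage: the guide strand can lower other transcripts through partial pairing at its seed, the loading machinery is shared with microRNAs, and double-stranded RNA can be sensed by innate receptors. Comparing a scramble siRNA with the lipid alone asks what uptake of an siRNA with no designed target does to gene expression and splicing. No sequence of the scramble siRNA is printed here, because the sources used here do not give one.

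Each value is a log2 signal of 1 path of an event. An event has a reference path, shared by its transcripts, and 2 alternative paths, called path 1 and path 2. The level of a gene was the mean of its reference paths. A gene was called at a limma p-value under 0.05 after Benjamini-Hochberg adjustment over all genes tested. An event was called where path 1 and path 2 moved in opposite directions by the test of EventPointer at the same threshold. Because the arrays were normalized by quantiles, a level is relative to the other RNAs of the same array, and a change in the total RNA of a cell cannot be told apart from none.

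The 2 conditions differed by more than their replicates did. Across the genes tested, samples of Lipofectamine correlated with each other at 0.9925 to 0.9939 and samples of scramble siRNA at 0.9944 to 0.9951, while the 9 pairs of one with the other lay between 0.9798 and 0.9887. These correlations are across genes and describe these samples. Median log2 signals of the 18 hybridizations ran from 6.23 to 6.33. One hybridization of Lipofectamine sample 1 held the highest median, 6.33, and differed from the other 8 of its condition by a root mean square of 0.247, against 0.1 to 0.132 for the other 17 hybridizations. Without it the counts below became 1407 genes higher, 1355 genes lower and 87 events. The labelled cell line could not be checked against marker genes, because the sources used here gave symbols for only 10 gene IDs of the table. With the filter on low signal taken over the 6 control samples alone, 1402 genes were higher, 1117 lower and 75 events called.

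In the main fit, which has no block, about 1 gene in 5 was called between the conditions, mostly with a small change. With scramble siRNA 1396 of 12549 genes (11.1%) stood above Lipofectamine and 1131 (9.01%) below it, 20.1% together. With the sample number as a block, since samples of the same number deviated together, 1958 were higher and 1510 lower. Of the genes called without the block 55.2% were higher, but without Lipofectamine replicate 1 the balance turned, with 970 higher and 1054 lower. The median called rise was 0.26 on the log2 scale and the median called fall was -0.28. Fewer genes moved far: 74 rose and 97 fell by more than 1.5-fold, and 13 rose and 17 fell by more than 2-fold. The remaining 2356 called genes, 93.2%, moved by no more than 1.5-fold, and the smallest called change was 0.13. Over all genes tested the median change was -0.001, 1 gene in 100 fell by more than 0.54 and 1 in 100 rose by more than 0.48.

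The counts depended on single samples. Without scramble siRNA replicate 2, 784 genes were higher and 740 were lower. In the fit of the 6 control samples alone, 1056 were higher and 917 lower. The replicates of the conditions did not overlap in 33% of all genes tested, in 1361 of the 1396 genes called higher and in 1111 of the 1131 called lower. The calls rest on the same values, so the larger share among called genes is no separate support for them. At an unadjusted p under 0.05, 4091 genes passed.

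**Figure D1:**
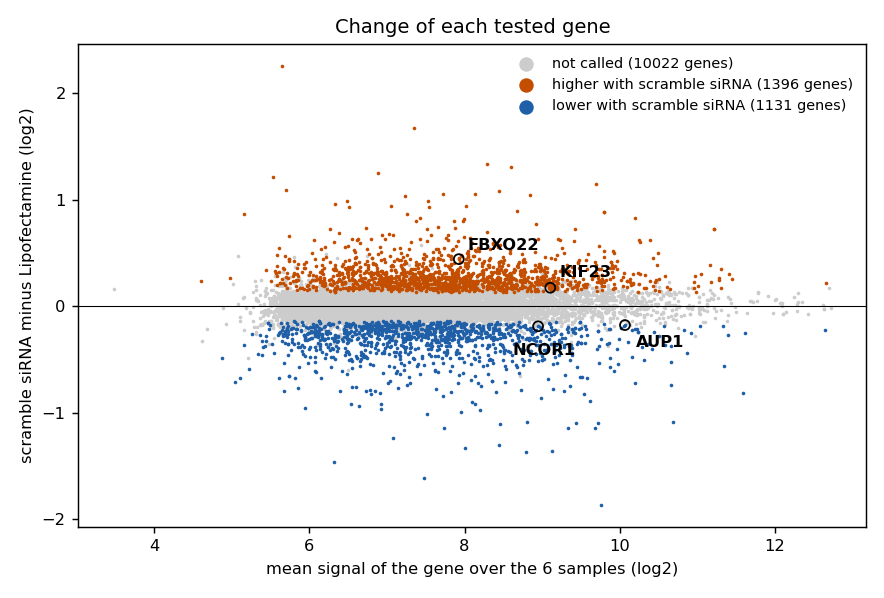
Change of each of the 12549 genes tested (scramble siRNA minus Lipofectamine, log2) against its mean log2 signal over the 6 samples, with 1396 genes called higher, 1131 called lower and 4 named genes ringed. Most called genes lie within 1 log2 unit of 0, FBXO22 sits among the genes called higher, NCOR1 and AUP1 among those called lower, and KIF23 was not called.

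The share of genes called was larger at higher signal. The genes were split into 4 bins of equal size by their mean signal. Of the 3138 genes in the lowest bin, from 3.48 to 6.46, 11.5% were called, with 4.97% higher and 6.5% lower. In the bin above it, up to 7.2, 17.2% were called. The next bin, up to 8.07, had 23.4% called. In the highest bin, from 8.08 to 12.72, 28.5% were called, with 17.2% higher and 11.3% lower. The median standard error was 0.058, 0.056, 0.056 and 0.057 from the lowest bin to the highest, so it was about level. The median absolute change went from 0.054 in the lowest bin to 0.106 in the highest, and the median signed change from -0.018 to 0.034. The part of array background in the small changes of dim genes was not tested.

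The number of events in a gene, and so the number of reference paths averaged, moved the called share less. Genes with 1 event were called in 17.1% of 2204 cases, with a median standard error of 0.059. Genes with 9 or more events were called in 20.5% of 1584 cases, with a median standard error of 0.053.

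The genes with the largest changes carry only Ensembl IDs in the table, and 2 in each direction are given. ENSG00000173391 had the largest measured rise. Its mean signal was 4.35, 4.86 and 4.34 in Lipofectamine samples 1 to 3 and 6.29, 7.02 and 7.001 in scramble siRNA samples 1 to 3. With Lipofectamine it lay under 5.77, the threshold of the gene filter, so it passed that filter only through the samples with an siRNA, and its low level is open to array background, whose part was not tested. The measured difference was 2.26 (SE 0.18, limma adjusted p = 2.06e-05). When the level of the gene was averaged over all its paths the difference was 1.12, with the call kept.

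ENSG00000133636 had 6.39, 6.93 and 6.22 with Lipofectamine and 7.79, 8.62 and 8.16 with scramble siRNA. Sample 2 was the highest in both conditions, and the conditions did not overlap. The change was 1.68 (SE 0.23, 3.2-fold, adjusted p = 0.000488).

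ENSG00000176485 fell the most, from 10.64, 10.90 and 10.54 with Lipofectamine to 9.09, 8.71 and 8.69 with scramble siRNA. Every scramble siRNA sample lay below every Lipofectamine sample. The change was -1.86 (SE 0.11, 3.64-fold lower, adjusted p = 7.13e-06). ENSG00000082146 had 8.13, 8.40 and 8.34 with Lipofectamine and 7.01, 6.45 and 6.57 with scramble siRNA. Its conditions did not overlap either, and the change was -1.61 (SE 0.12, 3.06-fold lower, adjusted p = 1.48e-05).

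The SRSF1 siRNA samples were measured against the same Lipofectamine samples in these 4 genes. ENSG00000173391 stood at 6.65, 6.97 and 6.87 with SRSF1 siRNA, beside the level of scramble siRNA, and 2.32 above Lipofectamine (SE 0.18, adjusted p = 5.41e-07). The other 3 stood near the vehicle. ENSG00000133636 was 0.31 above Lipofectamine (SE 0.23, adjusted p = 0.283). ENSG00000176485 had 10.63, 10.81 and 10.64 with SRSF1 siRNA, a difference from Lipofectamine that rounds to 0 (SE 0.11, adjusted p = 0.994). ENSG00000082146 was 0.09 above Lipofectamine (SE 0.12, adjusted p = 0.578). These comparisons share the Lipofectamine samples, and the difference between the 2 siRNAs was not tested here.

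Among the 12 genes with the largest called rise and no overlap, changes ran from 1.04 to 2.26. Among the 12 with the largest called fall, they ran from -1.1 to -1.86.

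Symbols were at hand for 10 gene IDs of the table, those of a list of splicing events that the study chose for their response to SRSF1 siRNA in the same experiment. The list itself names 9 of them, and AC024560.3 was matched by its position. The genes were therefore not chosen for what scramble siRNA did, but they share the scramble siRNA samples with that choice. Of these 10 genes 1 was higher, 2 were lower and 7 were not called, against 11.1% and 9.01% of all genes tested.

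**Figure D2:**
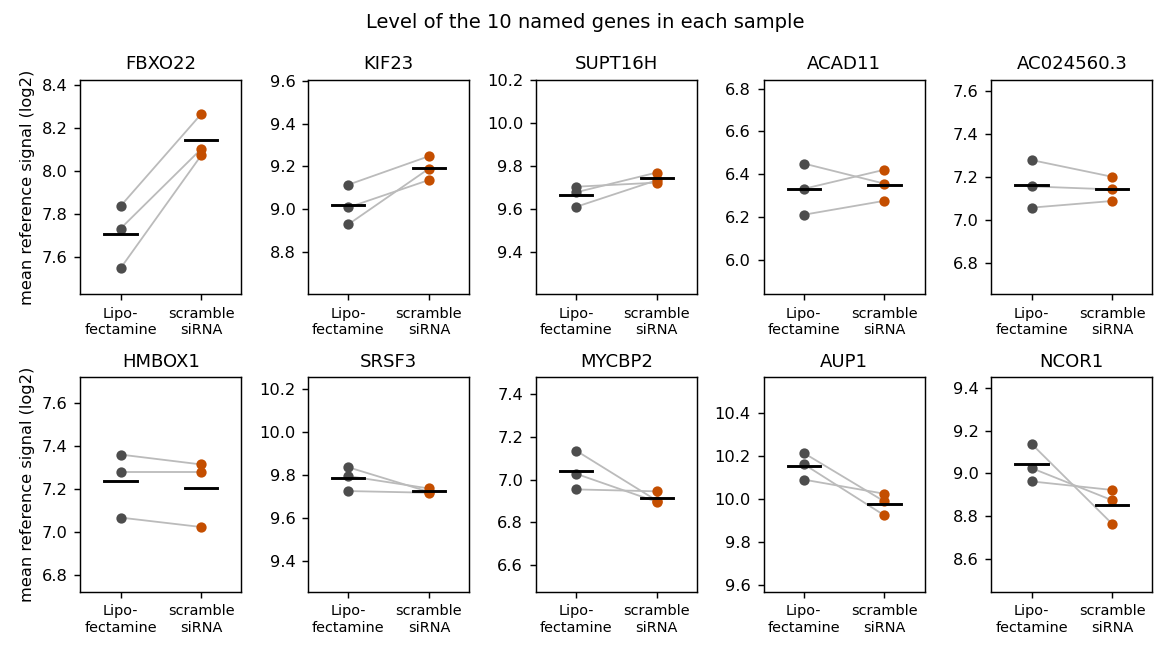
Mean log2 reference signal of the 10 named genes in each Lipofectamine and scramble siRNA sample, with bars at the means of 3 samples, grey lines joining samples of the same number, and every axis spanning 1 log2 unit. FBXO22 is higher in every scramble siRNA sample, NCOR1 and AUP1 are lower in every one, and the samples of SRSF3, HMBOX1, ACAD11 and AC024560.3 overlap.

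The listed events of the 3 called genes can be located by the RT-PCR primers that the study designed around them, so those primers are shown, 5′ to 3′, in lower case throughout since no base is singled out. The positions are those of the study's second vignette on GRCh37.
FBXO22 forward: gttgagtaacctggcggag
FBXO22 reverse: actgtatgtggtaagatgcgaac
NCOR1 forward: ggtcttggcccaaaagttga
NCOR1 reverse: gagctgatcataacgctggc
AUP1 forward: ggaactcagtccctacccac
AUP1 reverse: tgcgtattcatatagtgcttgct
The FBXO22 pair belongs to a cassette exon event, in which an exon is either kept or skipped, spanning chr15:76196323-76205608. The NCOR1 pair belongs to a cassette exon event spanning chr17:16052765-16055312. The AUP1 pair belongs to a retained intron event, in which an intron stays in part of the transcripts, spanning chr2:74754863-74755133. Each span is that of the event, and the ends of the exon or intron alone are not given.

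FBXO22, the substrate receptor of an SCF ubiquitin ligase, was higher with scramble siRNA. Its level was 7.55, 7.84 and 7.73 in Lipofectamine samples 1 to 3 and 8.07, 8.27 and 8.10 in scramble siRNA samples 1 to 3. Every scramble siRNA sample was above every Lipofectamine sample, and so were the single hybridizations, with 7.38 to 7.92 against 8.04 to 8.37. The hybridizations repeat the 3 samples of each condition and are not further replicates. The call rests on these same values, so the separation is no separate support for it. The mean went from 7.71 ± 0.15 to 8.15 ± 0.10 (SD, n = 3), a rise of 0.44 (SE 0.08, 1.36-fold, limma adjusted p = 0.00342), and only 3.11% of the genes tested had a larger absolute change. Samples of the same number differed by 0.53, 0.43 and 0.37. The call held under each of 19 alternative settings. The highest limma adjusted p was 0.017, without scramble siRNA replicate 2. The lowest, 1.11e-06, came from fitting each hybridization as a separate array, which counts repeats of 1 sample as replicates and overstates the evidence. SRSF1 siRNA stood on the other side of the vehicle, at 7.24, 7.49 and 7.36.

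The reference path and both alternative paths of the FBXO22 cassette exon event were higher with scramble siRNA. Path 1 was 9.50, 9.54 and 9.53 with Lipofectamine and 9.89, 10.02 and 9.92 with scramble siRNA, a change of 0.42 (single-path adjusted p = 0.0021). Path 2 was 8.04, 7.94 and 8.02 with Lipofectamine and 8.54, 8.45 and 8.19 with scramble siRNA, a change of 0.39 (single-path adjusted p = 0.00318). Neither path overlapped between the conditions, and the gene has no other event in the table. The change of path 1 minus that of path 2 was 0.03, with a 95% interval from -0.22 to 0.28, and the event test gave an adjusted p of 1.

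NCOR1, a corepressor that joins nuclear receptors to histone deacetylases, was lower. Its level was 8.96, 9.14 and 9.03 with Lipofectamine and 8.92, 8.77 and 8.88 with scramble siRNA. The conditions did not overlap, though the lowest Lipofectamine sample and the highest scramble siRNA sample, both numbered 1, lay close together. The change was -0.19 (SE 0.06, 1.14-fold lower, limma adjusted p = 0.0415), and the same-numbered differences were -0.04, -0.37 and -0.15. The call was lost, with the fall kept, without Lipofectamine replicate 2 (adjusted p = 0.112) or 3 (0.0807), without scramble siRNA replicate 2 (0.169) or 3 (0.0708), in the fit of the 6 control samples alone (0.0782), with no filter (0.0537), with arrays centred on their medians (0.0672) and with reference paths summarized by their median (0.118).

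Of the 20 events of NCOR1 8 were tested, with reference changes from -0.24 to -0.16 and changes of path 1 and path 2 from -0.42 to -0.11. Of these 24 changes 4 passed the single-path test, the reference path in 1 event and path 1 in 3. Over all events tested the reference path was lower in 5.58%, path 1 in 3.63% and path 2 in 4.52%. The 24 changes belong to 1 gene that was itself called lower, so they are not separate observations. The level of the gene is itself built from the reference paths, and 74.9% of the events in genes called lower had negative changes in both alternative paths. In the listed cassette exon, path 1 was 8.40, 8.59 and 8.60 with Lipofectamine and 8.39, 8.11 and 8.11 with scramble siRNA. Scramble siRNA sample 1 thus lay next to Lipofectamine sample 1, and the other 2 lay lower. Path 1 changed by -0.33 (single-path adjusted p = 0.0244) and path 2 by -0.15 (0.354), and their difference, -0.17, had a 95% interval from -0.44 to 0.09.

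AUP1, a protein of lipid droplets and of the endoplasmic reticulum that takes part in degradation of misfolded proteins, was also lower. Its level was 10.09, 10.16 and 10.22 with Lipofectamine and 10.03, 9.92 and 9.99 with scramble siRNA, without overlap. The change was -0.18 (SE 0.05, 1.13-fold lower, limma adjusted p = 0.023), and the same-numbered differences were -0.07, -0.24 and -0.23. The call was lost without Lipofectamine replicate 3 (adjusted p = 0.0958) or scramble siRNA replicate 2 (0.102), in the 6-sample fit (0.061) and with reference paths summarized by their median (0.0525). The reference changes of its 8 events ran from -0.23 to -0.15, and 1 of them passed the single-path test. Over all events tested the reference path was lower in 5.58%.

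In the retained intron of AUP1 no path passed the single-path test. Path 2 had 10.63, 10.57 and 10.66 with Lipofectamine and 10.54, 10.37 and 10.39 with scramble siRNA, a change of -0.19 (single-path adjusted p = 0.126). Path 1 had 7.76, 7.69 and 7.80 against 7.84, 7.50 and 7.71, which overlap, with a change of -0.07 (0.803). Another AUP1 event had the lowest p of all tested events of the 10 genes: path 1 was 0.14 higher and path 2 was 0.18 lower, with an unadjusted p of 0.00705 and an adjusted p of 0.345.

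KIF23, the kinesin of the central spindle needed for cytokinesis, was not called, but its samples did not overlap. Its level was 8.93, 9.12 and 9.01 with Lipofectamine and 9.19, 9.25 and 9.14 with scramble siRNA. The change was 0.17 (SE 0.07, 1.13-fold, limma adjusted p = 0.123), and with the sample number as a block it passed the threshold (adjusted p = 0.047). Same-numbered samples differed by 0.26, 0.13 and 0.13. The 9 single hybridizations of each condition did overlap, with 8.73 to 9.21 for Lipofectamine and 9.06 to 9.36 for scramble siRNA.

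Both paths of the KIF23 cassette exon had changes of the same sign as the gene. Path 1 was 8.71, 8.87 and 8.81 with Lipofectamine and 9.00, 9.08 and 8.93 with scramble siRNA, a change of 0.21. Path 2 was 4.37, 4.11 and 4.38 against 4.73, 4.30 and 4.57, a change of 0.25, and its samples overlap. In both control conditions path 2 lay under 5.77, the threshold of the event filter, and the event was tested because the SRSF1 siRNA samples reached 6.52 to 6.96 there. With path 2 at such signals in both conditions, these values do not show whether splicing of this exon moved, and no interval of the path difference is given.

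**Figure D3:**
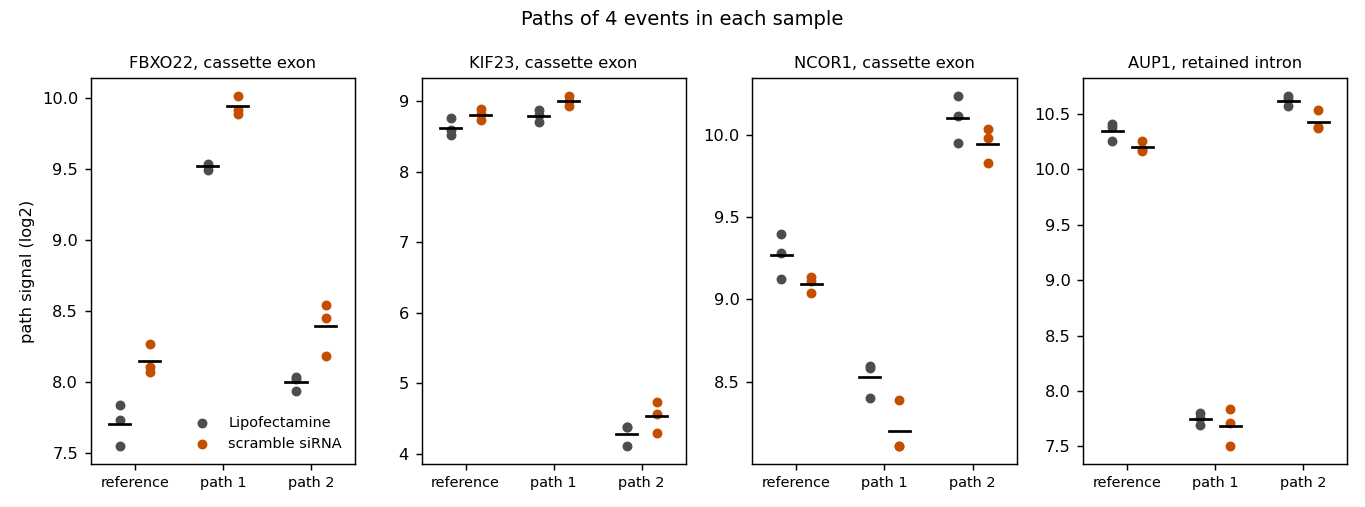
Log2 signal of the reference path, path 1 and path 2 of the listed events of FBXO22, KIF23, NCOR1 and AUP1 in each of 3 Lipofectamine and 3 scramble siRNA samples, with bars at the means. In FBXO22 the 3 paths have changes of 0.44, 0.42 and 0.39, in NCOR1 the 3 means are lower with scramble siRNA but only path 1 passed the single-path test, and path 2 of KIF23 lies under the filter's threshold of 5.77 in both conditions.

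The other 6 genes differed by less. MYCBP2, a large E3 ubiquitin ligase, had 7.03, 7.14 and 6.95 with Lipofectamine and 6.90, 6.90 and 6.95 with scramble siRNA, and changed by -0.12 (SE 0.07, adjusted p = 0.244). Its samples did not overlap, by a narrow margin between the samples numbered 3. SUPT16H, a subunit of the histone chaperone FACT, had 9.61, 9.68 and 9.70 against 9.73, 9.77 and 9.72, also without overlap, and changed by 0.08 (SE 0.04, adjusted p = 0.26).

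SRSF3, a splicing factor of the SR family to which SRSF1 belongs, had 9.73, 9.80 and 9.84 with Lipofectamine and 9.72, 9.74 and 9.72 with scramble siRNA. It changed by -0.06 (SE 0.05, adjusted p = 0.443). HMBOX1, a homeobox protein that binds telomeric DNA, changed by -0.03 (SE 0.09, adjusted p = 0.877). Its samples numbered 3 were the lowest in both conditions, at 7.07 and 7.02. ACAD11, of the acyl-CoA dehydrogenase family, changed by 0.02 (SE 0.07, adjusted p = 0.892), and AC024560.3 by -0.02 (SE 0.06, adjusted p = 0.872). For these last 3 genes the sign turned when single samples were left out.

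The event test called a far smaller share than the gene test did, but the 2 tests are unlike. An event needs path 1 and path 2 to move in opposite directions, while a gene needs a change of 1 mean level. The shares therefore do not compare the effect on splicing with that on expression. Of 25805 events tested, 71 (0.275%) had opposite path changes, 31 with path 1 up and 40 with path 2 up, in 62 gene IDs. With the sample number as a block the count was 191, and all 71 were among them. The count also moved with single samples: it was 142 without Lipofectamine replicate 2, 36 without Lipofectamine replicate 3 and 24 without scramble siRNA replicate 2. At an unadjusted p under 0.001, 192 events passed, and at an unadjusted p under 0.05, 1739 events (6.74%) did. When an event was given the weaker p of its 2 paths and not the sum, 2 events were called, both of ENSG00000149187.

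The called events were small in size. The path that moved less changed by 0.14 to 0.68, with a median of 0.24, and the path that moved more by 0.18 to 0.88, with a median of 0.32. At least 1 path passed 1.5-fold in 11 of the 71 events and both did in 2. Both paths separated the 3 Lipofectamine samples from the 3 scramble siRNA samples in 53 of the 71 (74.6%), against 6.37% of all events tested. The calls were made on these same values, so the separation is no separate support for them.

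The events were not all separate observations. In 10 of the 71 events all 3 path changes equalled, to 8 significant digits, those of a called event under another gene ID, and 65 pairs of path changes were distinct at 9 decimals. In 5 gene IDs more than 1 event was called, 14 events together, and the gene ID with the most had 6.

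**Figure D4:**
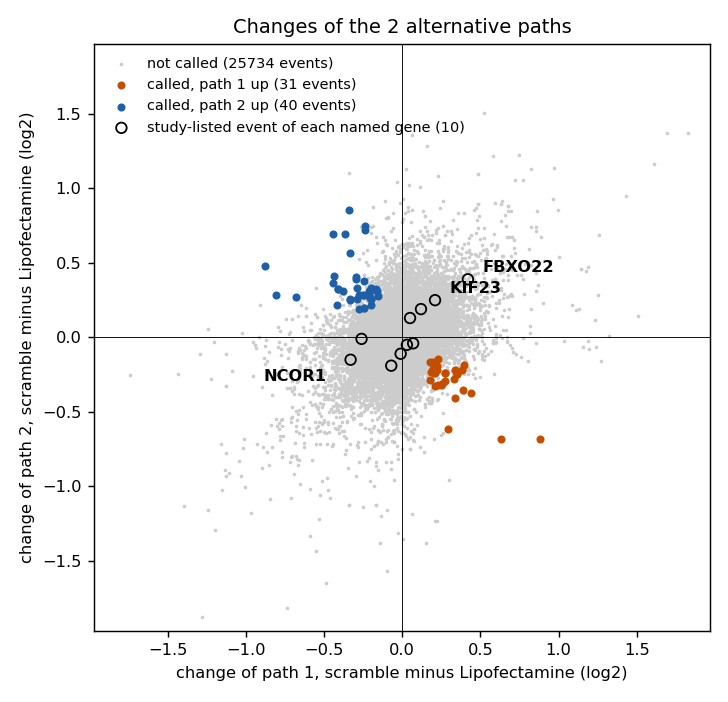
Change of path 1 (horizontal) and path 2 (vertical) of each of the 25805 events tested, scramble siRNA minus Lipofectamine, log2, with 71 called events coloured by the path that was up and the listed event of each of the 10 named genes ringed. The called events lie in the quadrants of opposite change, most within 0.5 of 0 on both axes, while FBXO22, KIF23 and NCOR1 lie in the quadrants where both changes have the same sign.

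The lowest p was that of an event of ENSG00000149187. Its path 1 was 7.46, 7.67 and 7.47 with Lipofectamine and 8.18, 8.65 and 8.40 with scramble siRNA. Path 2 went the other way, from 8.57, 8.61 and 8.61 to 8.12, 7.78 and 7.85, and neither path overlapped. The reference path was level, at 9.30, 9.28 and 9.23 against 9.26, 9.30 and 9.21. The changes were 0.88 for path 1, -0.68 for path 2 and -0.02 for the reference (SE 0.09 each for the paths, EventPointer test adjusted p = 2.19e-11). The gene's mean over its reference paths rose by 0.32 (SE 0.06, adjusted p = 0.00385). The event with the second lowest p belonged to the same gene and had the same path 2, so the pair shares its measurements. With SRSF1 siRNA path 1 of the first event was 8.63, 8.46 and 8.48 and path 2 was 8.09, 8.10 and 8.13, beside the levels of scramble siRNA.

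Among events with path 2 up, the lowest p was that of an event of ENSG00000169251. Path 1 fell from 7.73, 8.06 and 7.95 with Lipofectamine to 7.15, 7.06 and 6.89 with scramble siRNA, and path 2 rose from 5.51, 5.45 and 5.66 to 6.05, 6.09 and 5.93. The rising path was under the filter's threshold of 5.77 in all 3 Lipofectamine samples, so it passed the filter only through conditions where it was higher. The reference path fell as well, from 8.14, 8.49 and 8.39 to 7.64, 7.56 and 7.41. The changes were -0.88 for path 1, 0.48 for path 2 and -0.81 for the reference (EventPointer test adjusted p = 1.16e-06). The call was lost with the weaker p of the 2 paths (adjusted p = 0.195), and with the 50% quantile filter the event was not tested. The level of the gene also fell, by 0.48 over its reference paths (SE 0.05, adjusted p = 0.00012).

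**Figure D5:**
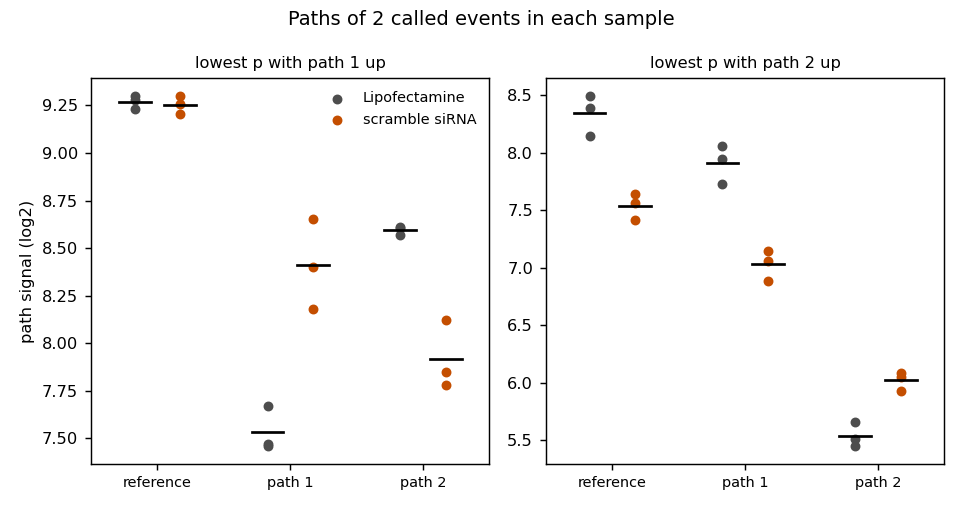
Log2 signal of the reference path, path 1 and path 2 in each of 3 Lipofectamine and 3 scramble siRNA samples, with bars at the means, for the event of ENSG00000149187 (left) and that of ENSG00000169251 (right). On the left path 1 rises and path 2 falls around a level reference, and on the right path 1 falls with the reference while path 2 rises.

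Where both alternative paths passed a test of their own, they moved together more often than apart. In a test of single paths in the same model, added after the data had been seen, path 1 was higher in 3.62% of the events tested and lower in 3.63%. Path 2 was higher in 5.37% and lower in 4.52%, and the reference path was higher in 5.25% and lower in 5.58%. Both alternative paths passed and moved the same way in 582 events, 294 up and 288 down. Both passed and moved apart in 28 events. Events of a gene can share a path, so these counts are not all of separate observations. Before the filter, 11798 measurements of path 1 or path 2 repeated another of the same gene. In 3204 events exactly 1 of them passed and in 21991 neither did, and over all events tested the 2 changes had the same sign in 59.6%. Of the 71 called events, the reference path was higher in 14, lower in 7 and not called in 50. Of the 62 gene IDs with a called event, 18 were called higher in expression, 11 lower and 33 neither. Among all genes tested 11.1% were called higher and 9.01% lower. Some of the 62 share all path changes of a called event with another gene ID, and the difference from all genes was not tested.

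None of the 38 tested events of the 10 named genes was called by the EventPointer test, against 0.275% of all events tested, and the lowest adjusted p was 0.345. A count of 0 in so few events is close to that background. In the listed events, the change of path 1 minus that of path 2 ran from -0.25 in MYCBP2, with a 95% interval from -0.57 to 0.07, to 0.12 in AUP1, with one from -0.10 to 0.34. The interval of SRSF3 was -0.15 to 0.31, that of SUPT16H -0.32 to 0.18, that of ACAD11 -0.37 to 0.19 and that of AC024560.3 -0.18 to 0.39. These 6 intervals and those of FBXO22 and NCOR1 held 0, which does not show that the paths moved alike. No interval is given for KIF23 and HMBOX1, each with a path under 5.77 in all 6 control samples. In the alternative first exon of HMBOX1 this was path 1, at 4.57, 4.81 and 4.46 with Lipofectamine and 4.43, 4.76 and 4.63 with scramble siRNA, and only the SRSF1 siRNA samples, at 6.06, 5.95 and 5.82, took it past the filter.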

How the data were processed

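RNA of A549 cells was measured on HTA 2.0 arrays in 27 hybridizations. The authors mapped probes to an Ensembl human transcriptome with Bowtie, grouped them by the paths of splicing events, corrected background, normalized by quantiles and summarized each path by RMA in aroma.affymetrix, so the deposited values are log2 signals. They were used unchanged, and no sample column was left out. The sources do not say which number in the labels is the biological replicate. The sample number was taken as such: within a condition, deviations of hybridizations with the same sample number correlated at 0.2 (Lipofectamine) and 0.226 (scramble siRNA) on average. Those with the same replicate number averaged -0.229 and -0.233, near the -0.205 and -0.246 of pairs that shared neither number. Single pairs of the same sample number varied, from -0.25 to 0.505 with Lipofectamine and from 0.058 to 0.43 with scramble siRNA. The 3 hybridizations of a sample were averaged. Whether samples came from separate cultures is not stated beyond the term biological replicate.

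All 9 samples were fitted in limma 3.58.1 (R 4.3.3, data.table, version 1.17.8). Genes were tested on the mean of their reference paths. Events were tested by the EventPointer test, which sums the one-sided p-values of opposite path changes, with the 3 paths in 1 model. This model takes the 3 paths of a sample as independent, and the p-values and intervals of events rest on that. Features had to exceed the 25% quantile of maximum signal, 5.77 (for events, in every path). Calls were made at 0.05 after Benjamini-Hochberg adjustment over all genes or all events. Intervals are at 95%, and the number of arrays limits the precision. Samples of the same number deviated together (correlations of 0.324, 0.421 and 0.481), so a fit with the number as a block was run beside the main fit. The main fit has no block and does not use this pairing. Calls, p-values and intervals are those of the main fit unless another setting is named.

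Both tests were first tested on simulated data. The simulated noise was independent between paths and between samples. It therefore cannot show how the tests behave where paths of an array, or samples of the same number, deviate together.

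Members, lists and rules were chosen with earlier results of these data known. The rule named the largest called changes with symbols, called list members, the events with the lowest p, and the 10 genes the study pairs with IDs. Only those 10 of 16733 IDs could be named, since the reference table matched 0 IDs, so the 27 gene lists (824 symbols), the marker lists and the level of SRSF1 were not analysed here, and the largest changes are given by ID. The ID of AC024560.3 was matched to its symbol by position. Event positions and primers are the study's.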

Additional observations from a re-analysis of the deposited data

How the results depend on the processing

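FBXO22, ENSG00000173391, ENSG00000133636, ENSG00000176485, ENSG00000082146 and the event of ENSG00000149187 kept their direction and call under every alternative run on them. The change of ENSG00000173391 was, however, 1.12 with the mean of all paths, against 2.26 in the main fit. That gene lay under the threshold of the gene filter with Lipofectamine, so it passed only through the samples with an siRNA. Its kept call is no separate support for the size of its rise, and the part of array background was not tested. With the sample number as a block, which pairs the samples, 1958 genes were higher and 1510 lower, all 2527 calls of the unblocked fit were among them in the same direction, and 191 events were called; beyond these counts only KIF23 changed its call. With the replicate number of the labels as the biological replicate, 2900 genes were higher, 2325 lower and 407 events called. With every hybridization fitted as a separate array, which counts repeats of 1 sample as replicates, the counts were 2550, 2037 and 252. In the fit of the 6 control samples alone, 1056 genes were higher and 917 lower. Of the 2527 calls of the main fit, 76.7% were kept there in the same direction. Event counts were 39 in the fit of 6 samples, 135 with no filter and 43 with the 50% quantile filter. They were 2 with the larger one-sided p and 30 with a separate spread for each path. Leaving out 1 sample gave 784 to 1552 genes higher, 740 to 1105 lower and 24 to 142 events.

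Values that were not called and lay near 0 turned their sign when 1 sample was left out. The log2 change then ran from -0.074 to 0.037 in AC024560.3, from -0.115 to 0.061 in HMBOX1 and from -0.04 to 0.079 in ACAD11. The change of path 1 minus that of path 2, which in KIF23 and HMBOX1 involves a path under the filter's threshold in all control samples, ran from -0.191 to 0.087 in KIF23, -0.061 to 0.243 in AC024560.3, -0.066 to 0.127 in FBXO22, -0.222 to 0.077 in SUPT16H and -0.021 to 0.249 in HMBOX1. ACAD11 was also -0.009 with the mean of all paths and -0.014 without the hybridization that stood apart. That alternative and the filter over the 6 control samples were added after seeing the data. The causes were not tested.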
